A study of Mus musculus with 14 samples.

Results

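The inner layer of CA3 pyramidal cells in Dcx mutant mice was compared with undivided CA3 of wild-type (WT) mice. Members were chosen by their titles, 4 arrays titled inner and 5 titled WT, of 14 arrays in the series. All mice were adults of the Sv129Pas strain. The mutants carried the genotype given as Dcx, called a knockout in the series' design text. The sources used here do not state which part of Dcx was changed, whether a Cre driver was used, or the sex of the animals. In mutants the pyramidal cells of CA3 lie in an inner layer (internal stratum pyramidale, SPI) and an outer layer (external stratum pyramidale, SPE), which were dissected apart. In WT mice CA3 was removed as a single piece, so mutation and the narrower dissection cannot be told apart in the comparison of SPI with WT. The 4 inner samples came from mice 147, 146, 166 and 148, which also gave outer samples, and the 5 WT samples came from mice 145, 206, 142, 199 and 144. The region field of the outer samples, and the source field of 1 of them, carries the code SPI, against their titles and wording. Each sample was total RNA of pooled microdissected tissue, amplified and read on 1 Illumina bead array. No label says whether the pooled pieces came from 1 animal, beyond the animal number in the title.

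Doublecortin, the protein encoded by the X-linked gene Dcx, binds and stabilises microtubules and is needed by migrating neurons. In the rodent hippocampus its loss splits the CA3 pyramidal layer, which is otherwise a single compact band of excitatory neurons. Inhibitory interneurons, which release GABA together with peptides such as somatostatin, neuropeptide Y and cortistatin, are scattered through this band and more densely through the neighbouring stratum oriens and stratum radiatum. Oligodendrocytes, their precursors, astrocytes, microglia and vessel cells share the same tissue. In bulk tissue, fewer cells of a type and less RNA per cell cannot be told apart.

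The inner arrays were dim. Mean raw bead signal, in intensity units over all 25697 probes, was 119 for mouse 147, 231 for mouse 148, 331 for mouse 166 and 362 for mouse 146, against 371 to 515 on the WT arrays. Every inner array lay below every WT array. The group means were 261 ± 110 (SD, n = 4) in SPI and 456 ± 54.1 (SD, n = 5) in WT, a difference of -195 (two-sided exact permutation test, p = 0.00794, the smallest that all splits of 9 arrays allow). Probes with a detection p under 0.05 numbered 8413, 10366, 11109 and 11406 on those inner arrays and 11618 ± 286 (SD, n = 5) in WT (exact permutation p = 0.0238), a test that did not pass 0.05 in 8 of 9 cases when 1 array was left out. SPE 148, from the same mouse as SPI 148, was the dimmest outer array at 279, and the other outer arrays lay between 400 and 482. Probes of the CA3 pyramidal genes Bok and Cpne4 were detected on every inner array. Both probes were bright in WT (means of 12.15 and 12.34 log2 units), so their detection is only a weak check of the tissue label. The full list of CA3 markers, most of which did not rise, is described below. Both Dcx probes past the filter were lower in the inner layer by their fitted values, and 1 was called. The brighter Dcx probe was at 5.92, 5.92, 5.50, 5.50 and 5.91 log2 units in WT mice 145, 206, 142, 199 and 144, and at 4.64, 5.64, 5.37 and 5.55 in SPI of mice 147, 146, 166 and 148. The ranges overlapped, and the difference of -0.43 ± 0.23 (SE) had a limma adjusted p of 0.184. The dimmer probe was at 5.15, 5.62, 5.46, 5.56 and 6.12 in WT and 4.54, 4.62, 4.75 and 4.90 in SPI. It was detected on every WT array and on no inner array, without overlap, at least 1.44-fold higher in WT, and in a limma fit of every probe its difference was -0.86 (adjusted p = 0.003). It was also detected on 4 outer arrays. The mutated part of Dcx is not stated, so neither probe can check the genotype.

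**Figure D1:**
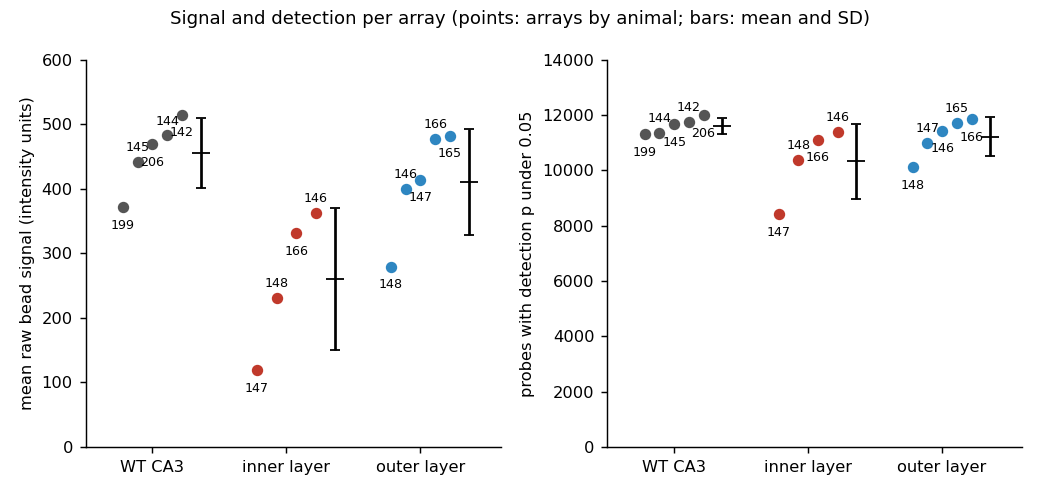
Mean raw bead signal (left, intensity units) and number of probes with detection p under 0.05 (right) for each array, with points labelled by animal and bars showing the mean and SD of each group. The 4 inner arrays lie between 119 and 362, all below the WT arrays at 371 to 515, and SPI 147 has the fewest detected probes at 8413.

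All values below are log2 signals after background correction and quantile normalisation, and differences are SPI minus WT with the standard error (SE) of the limma fit. A feature was called at a limma adjusted p under 0.05 over 9355 features (8671 genes, each read by its brightest probe, and 684 probes with no gene name). Of these, 2289 (24.5%) were called, 1273 higher in SPI (13.6%) and 1016 lower (10.9%). Called differences over 2-fold numbered 230 higher (2.46%) and 267 lower (2.85%). The arrays of the groups did not overlap for 1176 features that were higher (12.6%) and 833 that were lower (8.9%). The median difference of all features was 0.03. Scaling sets this zero: median scaling over probes detected on all arrays put the median of all features at 0.34, with 2695 higher and 491 lower calls. Median scaling over all probes, chosen after seeing the data, put it at -0.85, with 16 higher and 4003 lower. Differences are therefore relative to the bulk of features after quantile normalisation.

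The share of features called differed with the brightness of the probe. In the dimmest of 6 bins of mean level (4.49 to 5.06, 1560 features), 2.56% were called higher and 5.83% lower. In the fourth bin (7.18 to 8.45) these shares were 19.8% and 13.0%, and in the brightest bin 12.0% and 10.6%. Replicates spread more in the inner layer: the median SD over all features was 0.31 in SPI and 0.17 in WT. The fit assumes 1 spread for all groups. With a separate weight for each group, an alternative chosen after seeing the data, 1160 features were called, 642 higher and 518 lower, and each of these 642 and 518 had been called the same way without the weights.

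**Figure D2:**
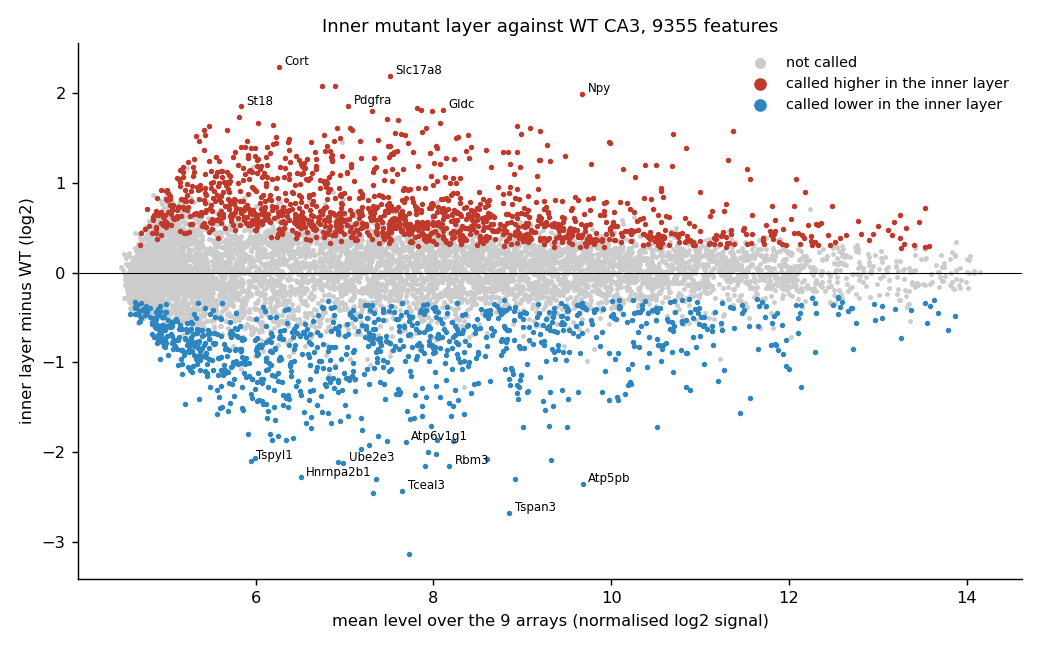
Difference between the inner layer and WT (vertical axis, log2) against mean level over the 9 arrays (horizontal axis, normalised log2 signal), with 1 point per feature, the 1273 called higher in red and the 1016 called lower in blue. Names mark those of the 12 largest rises and 12 largest falls whose labels have room.

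Genes of the interneuron list made up 3 of the 12 largest rises, among them the 2 largest, Cort and Slc17a8. Values are given in the order of WT mice 145, 206, 142, 199 and 144, then SPI of mice 147, 146, 166 and 148. Cort, encoding the peptide cortistatin, was at 5.29, 5.25, 5.42, 5.12 and 5.14 in WT and at 7.72, 7.50, 6.78 and 8.19 in SPI. All inner arrays stood above all WT arrays, with the highest value on SPI 148 and the lowest on SPI 166, and Cort rose by 2.29 ± 0.21 (4.88-fold, limma adjusted p = 1.26e-05). Both of its probes were called, the further one at 1.77. Npy, encoding neuropeptide Y, was at 8.96, 8.16, 9.11, 8.69 and 8.92 in WT and at 10.66, 11.08, 10.68 and 10.79 in SPI. The inner arrays lay close together, well above WT, and Npy rose by 1.99 ± 0.20 (3.96-fold, adjusted p = 3.69e-05). Slc17a8 encodes VGLUT3, a vesicular glutamate transporter found in a subset of interneurons that also hold cholecystokinin. Its levels were 6.54, 6.47, 6.28, 6.59 and 6.78 in WT and 8.84, 9.00, 8.33 and 8.76 in SPI, without overlap, a rise of 2.19 ± 0.19 (4.55-fold, adjusted p = 1.18e-05).

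Other interneuron genes outside the naming rule, Sst, Pvalb, Gad1, Slc32a1 and Vip, were singled out after their values were seen. Sst, the gene of the peptide somatostatin, was at 8.71, 8.41, 8.81, 8.89 and 8.93 in WT and 9.86, 10.11, 9.86 and 10.19 in SPI (difference 1.24 ± 0.14, limma adjusted p = 4.97e-05). Pvalb, encoding the calcium-binding protein parvalbumin of fast-spiking cells, was at 11.02, 11.03, 11.17, 11.17 and 11.06 in WT and 12.19, 12.21, 11.99 and 12.20 in SPI (1.04 ± 0.12, adjusted p = 9.21e-05). Neither gene overlapped between the groups. Gad1, a GABA-synthesising enzyme, was at 9.77, 9.86, 9.73, 9.60 and 10.26 in WT and 11.17, 11.30, 10.65 and 11.07 in SPI (1.20 ± 0.18, adjusted p = 0.000477). Slc32a1, the vesicular GABA transporter, was at 10.23, 10.00, 10.12, 10.14 and 10.28 in WT and 11.85, 11.71, 11.22 and 10.62 in SPI (1.18 ± 0.19, adjusted p = 0.000972). The groups did not overlap for either gene, and the smallest Slc32a1 rise was on SPI 148. Vip, encoding vasoactive intestinal peptide, differed by 1.27 ± 0.25 (adjusted p = 0.00271), which did not pass once mean array signal entered as a covariate (adjusted p = 0.116).

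Upstream sequence is shown for the peptide genes Cort, Npy and Sst, which rose together on every inner array. The letters are the 100 bases before the annotated start in RefSeq, build GRCm38.p6, read 5′ to 3′ on the strand of the gene. They lie at chr4:149126764-149126863 (minus strand) for Cort, chr6:49822610-49822709 (plus strand) for Npy and chr16:23890845-23890944 (minus strand) for Sst.
Cort: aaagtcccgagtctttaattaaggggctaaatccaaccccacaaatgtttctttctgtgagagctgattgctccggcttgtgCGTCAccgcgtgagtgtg
Npy: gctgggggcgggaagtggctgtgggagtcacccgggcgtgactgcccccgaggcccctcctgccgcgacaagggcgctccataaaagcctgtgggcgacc
Sst: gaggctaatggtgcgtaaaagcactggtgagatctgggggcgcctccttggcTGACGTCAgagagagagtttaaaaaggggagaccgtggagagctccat
Capitals mark the cyclic AMP response element TGACGTCA, which reads the same on both strands, or its shorter form TGACG, searched on both strands (CGTCA on the other). The full element is in the Sst window, starting 48 bases before the start site, and is held by 1.15% of the 32851 promoter windows of this length. The shorter form, which the full element contains, is held by 10.5% of windows and occurs in that of Cort. Neither was found in the Npy window, so these letters are not shared by the 3 genes.

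Over the whole interneuron list, 26 of 30 genes were on the array and 16 passed the detection filter. Of these, 11 rose, 2 fell and 3 did not pass, where 13.6% of all features rose. The genes that fell, named after their values were seen, were Cck, encoding cholecystokinin (-0.39, limma adjusted p = 0.036), and Nos1, neuronal nitric oxide synthase (-0.69, adjusted p = 0.0415). The median difference was 1.12. By array, the list median was 1.23, 1.42, 0.93 and 1.01 above the WT mean on SPI 147, 146, 166 and 148. On SPE 148 it was 0.03, and on the other outer arrays it lay between -0.17 and -0.10. The number that rose was 11 with mean signal as a covariate, 12 without SPI 147 and SPI 148, and 10 with a weight for each group. Gad2, Lhx6, Dlx5, Chrna2, Adarb2 and Crh, 6 of the listed genes, were not detected on any of the 9 arrays. The summed level of the 16 genes, on the linear scale, was 18124 to 21875 in SPI, 12788 to 14672 in WT and 11232 to 12519 in SPE. The test of SPI against SPE, within the mutants, called 13 of the 16 higher (10.8% of all features were), with Cort at 2.35, Npy at 2.08 and Slc17a8 at 1.99.

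Further neuronal genes rose on every inner array. Reln encodes reelin, a secreted guidance protein of Cajal-Retzius cells and of many adult interneurons. It was at 6.37, 6.09, 6.29, 6.22 and 6.66 in WT and 7.67, 8.31, 7.37 and 8.53 in SPI, without overlap, and rose by 1.61 ± 0.23 (limma adjusted p = 0.000344). The other measured Cajal-Retzius genes, Ndnf and Trp73, did not pass (-0.02 and -0.39), and Lhx1 and Lhx5 were not detected on any of the 9 arrays. Cdh13, an adhesion molecule of the cadherin family, was at 6.45, 6.53, 6.29, 6.44 and 6.88 in WT and 8.91, 8.44, 7.73 and 8.16 in SPI (1.79 ± 0.21, adjusted p = 8.61e-05). Its relative Pcdh17, a protocadherin, rose by 1.36 ± 0.26 (adjusted p = 0.00258). The groups were apart for both, although over the family 2 of 29 measured members rose, 4 fell and the median was -0.15. Over all features 13.6% rose and 10.9% fell. Rims3, a presynaptic active zone protein, rose by 1.67 ± 0.18, and Rcan2, an inhibitor of the phosphatase calcineurin, by 1.57 ± 0.16. The further probe of Rcan2 differed by only 0.18 and was not called.

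Regulators of G protein signalling (RGS) shorten the signal of G protein-coupled receptors. Of 14 measured RGS genes 5 rose and 0 fell, with a median of 0.26, where 13.6% of all features rose and 10.9% fell. With the signal covariate 2 of the 14 rose. Rgs10 was at 6.93, 6.92, 6.91, 7.18 and 7.08 in WT and 9.14, 8.91, 8.27 and 9.04 in SPI. The WT values were tight and the inner ones far above them (1.83 ± 0.18, limma adjusted p = 2.8e-05). Rgs5, a gene of pericytes, rose by 1.23 ± 0.27, and Rgs16 by 0.89 ± 0.16, which did not pass with the signal covariate (adjusted p = 0.0969).

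Oligodendrocyte lineage genes formed the next group. Pdgfra, the growth factor receptor that marks oligodendrocyte precursors, was at 6.08, 6.03, 6.22, 6.34 and 6.38 in WT and 8.04, 8.23, 7.55 and 8.47 in SPI. It rose by 1.85 ± 0.16 (3.60-fold, limma adjusted p = 9.87e-06), with every inner value above every WT value. Matn4, an extracellular matrix protein of precursors, was at 5.84, 5.60, 6.00, 6.25 and 6.13 in WT and 8.85, 7.78, 7.63 and 7.98 in SPI (2.08 ± 0.23, adjusted p = 5.54e-05). The further Matn4 probe differed by 0.13 and was not called. Gpr17, a receptor of precursors that begin to differentiate, was at 5.99, 6.18, 6.16, 6.45 and 6.06 in WT and 5.88, 8.01, 7.79 and 7.61 in SPI (1.15 ± 0.31, adjusted p = 0.016). It stood high on 3 inner arrays but below every WT array on SPI 147, the dimmest array, and without SPI 147 and SPI 148 its difference was 1.76. Of 6 precursor genes measured 3 rose and 0 fell (median 0.67), where 13.6% of all features rose and 10.9% fell.

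Mature oligodendrocyte and myelin genes rose as well. Olig1, a transcription factor of the lineage, was at 9.14, 9.14, 9.64, 9.31 and 9.53 in WT and 10.79, 10.77, 10.38 and 11.23 in SPI (1.44 ± 0.16, limma adjusted p = 5.54e-05). Cnp, a myelin enzyme, was at 8.50, 8.03, 8.51, 8.59 and 8.04 in WT and 10.04, 9.70, 9.35 and 9.66 in SPI (1.34 ± 0.16, adjusted p = 0.00011). Enpp6, a choline-specific phosphodiesterase of newly formed oligodendrocytes, was at 4.63, 4.69, 4.66, 4.76 and 4.78 in WT and 5.89, 6.30, 5.97 and 7.05 in SPI (1.58 ± 0.18). Its probe was detected on 4 inner arrays but on only 2 WT arrays and 1 outer array, so the size of its rise rests partly on undetected signal. For these genes the groups were apart and SPI 166 or SPI 147 held the lowest inner value. The transcription factor St18 was at 4.73, 4.50, 5.05, 5.30 and 5.49 in WT and 6.81, 6.81, 6.28 and 7.58 in SPI (1.85 ± 0.27, adjusted p = 0.000402). Of 29 listed genes 23 were on the array and 21 were measured. Of these 13 rose, 0 fell and 8 did not pass, with a median of 1.08, where 13.6% of all features rose and 10.9% fell. Among those that did not pass, chosen after their values were seen, Mog, Qdpr, Car2 and Aspa differed by -0.25, -0.01, -0.08 and -0.02. The count that rose was 13 with the signal covariate, without SPI 147 and SPI 148, and with a weight for each group. The list's median stood 1.04, 1.27, 0.62 and 1.37 above the WT mean on SPI 147, 146, 166 and 148, and its summed level was 14203 to 25165 in SPI, 7596 to 10137 in WT and 9046 to 10054 in SPE. Only Ermn of the listed genes on the array was not detected on any of the 9 arrays.

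Astrocyte genes gave list medians of 0.96, 1.01, 0.53 and 0.67 above the WT mean on SPI 147, 146, 166 and 148. Gja1, encoding the gap junction protein connexin 43, was at 10.05, 9.84, 9.88, 10.08 and 10.18 in WT and 11.64, 11.83, 10.99 and 11.74 in SPI (1.54 ± 0.17, limma adjusted p = 5.54e-05). Slc1a3, the glutamate transporter GLAST, was at 11.01, 11.01, 10.96, 11.01 and 11.07 in WT and 12.15, 12.28, 11.86 and 12.35 in SPI (1.15 ± 0.12, adjusted p = 3.69e-05). Both were lowest on SPI 166 among the inner arrays, yet above all WT arrays. The claudin Cldn10 rose by 1.30 ± 0.11 (adjusted p = 1.09e-05), while 1 of its 3 probes differed by -0.27. Of 15 measured astrocyte genes 9 rose (13.6% of all features did), 0 fell (10.9% of all features) and 6 did not pass, with a median of 0.66. Gfap, the intermediate filament of reactive astrocytes, looked up after the list was counted, differed by 0.30 and did not pass. Their number was 8 with the signal covariate, 10 without SPI 147 and SPI 148, and 9 with a weight for each group, and the summed level was 19000 to 25461 in SPI, 10836 to 13044 in WT and 11265 to 13180 in SPE. S100b, Glul, Slc4a4, Mlc1, F3 and Fabp7 were not detected on any of the 9 arrays.

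Metabolic and secreted proteins found mainly in glia stood among the steadiest rises. Gldc, the glycine-cleaving enzyme of the glycine cleavage system, was at 7.32, 7.14, 7.37, 7.48 and 7.18 in WT and 9.22, 9.21, 8.72 and 9.31 in SPI. Its inner values were close together apart from SPI 166, and it rose by 1.81 ± 0.15 (3.50-fold, limma adjusted p = 9.76e-06), although the further probe differed by 0.37 and was not called. Mfge8, a secreted bridge between dying cells and phagocytes, was at 10.81, 10.40, 10.71, 10.76 and 10.56 in WT and 12.67, 12.49, 11.87 and 12.01 in SPI (1.58 ± 0.18), and both of its probes were called. Metrn, a secreted glial factor, was at 8.44, 7.96, 8.47, 8.72 and 8.22 in WT and 10.02, 10.18, 9.80 and 9.96 in SPI (1.61 ± 0.15, adjusted p = 1.77e-05). The groups were apart for all of these. Scrg1, a small secreted protein, rose by 1.80 ± 0.17 (adjusted p = 1.77e-05).

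Microglial genes rose too. Laptm5, a lysosomal membrane protein of immune cells, was at 7.64, 7.04, 7.78, 7.79 and 7.72 in WT and 9.50, 9.30, 8.63 and 9.05 in SPI (1.51 ± 0.19, limma adjusted p = 0.000155). C1qa, a chain of the first complement component, was at 4.95, 4.76, 5.02, 5.15 and 5.24 in WT and 6.68, 6.09, 6.20 and 6.19 in SPI (1.24 ± 0.17, adjusted p = 0.000209). Tmem119, a membrane protein of resident microglia, was at 5.18, 5.22, 5.24, 5.25 and 5.42 in WT and 6.43, 6.31, 5.93 and 6.48 in SPI (1.02 ± 0.13, adjusted p = 0.000138). No inner array overlapped WT for these genes. Of 14 measured microglial genes 9 rose (13.6% of all features did), 0 fell (10.9% of all features) and 5 did not pass (median 0.93). The count was 8 with the signal covariate, 9 without SPI 147 and SPI 148, and 8 with a weight for each group. Microglial genes stood 0.45 above the WT mean on SPE 148 as a list median, against 0.54 on SPI 166 and 1.00 to 1.04 on the other inner arrays. Their summed level was 1219 to 1746 in SPI, 640 to 795 in WT and 753 to 897 in SPE, and Itgam, P2ry12, Fcer1g, Cd53 and Irf8 were not detected on any of the 9 arrays. Of 5 measured genes of reactive glia 2 rose, among them the galectin Lgals1 (1.27 ± 0.16, adjusted p = 0.000174).

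Genes of the coverings and vessels of the brain moved in part. Igf2, a growth factor made by meninges and choroid plexus, was at 7.21, 6.42, 7.29, 7.12 and 7.22 in WT and 9.05, 9.01, 8.29 and 9.14 in SPI. The groups were apart, with WT 206 and SPI 166 low in their groups, and Igf2 rose by 1.81 ± 0.24 (3.51-fold, limma adjusted p = 0.000224). Kl, encoding klotho, a choroid plexus protein also made by neurons, was at 6.34, 6.00, 6.06, 5.86 and 6.41 in WT and 7.26, 7.24, 6.77 and 7.34 in SPI (1.03 ± 0.14, adjusted p = 0.000254). Ttr, encoding transthyretin, the main choroid plexus product, likewise looked up, differed by 0.34 and did not pass. Of 7 genes of meninges, choroid plexus and ependyma 3 rose and 0 fell (median 0.61), where 13.6% of all features rose and 10.9% fell. The list medians were 1.13, 0.53, 0.29 and 1.36 on SPI 147, 146, 166 and 148. Their summed level was 1193 to 2231 in SPI, 602 to 874 in WT and 632 to 1022 in SPE. Of 11 endothelial and mural genes 3 rose and 1 fell (median 0.34): the matrix protein Vtn rose by 0.94 ± 0.14 and the membrane protein Itm2a fell by 1.20 (SE 0.20). The Itm2a call was lost with median scaling (adjusted p = 0.102). Neither of the 2 haemoglobin genes measured passed, and the part of these cell type markers in the other results was not tested.

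**Figure D3:**
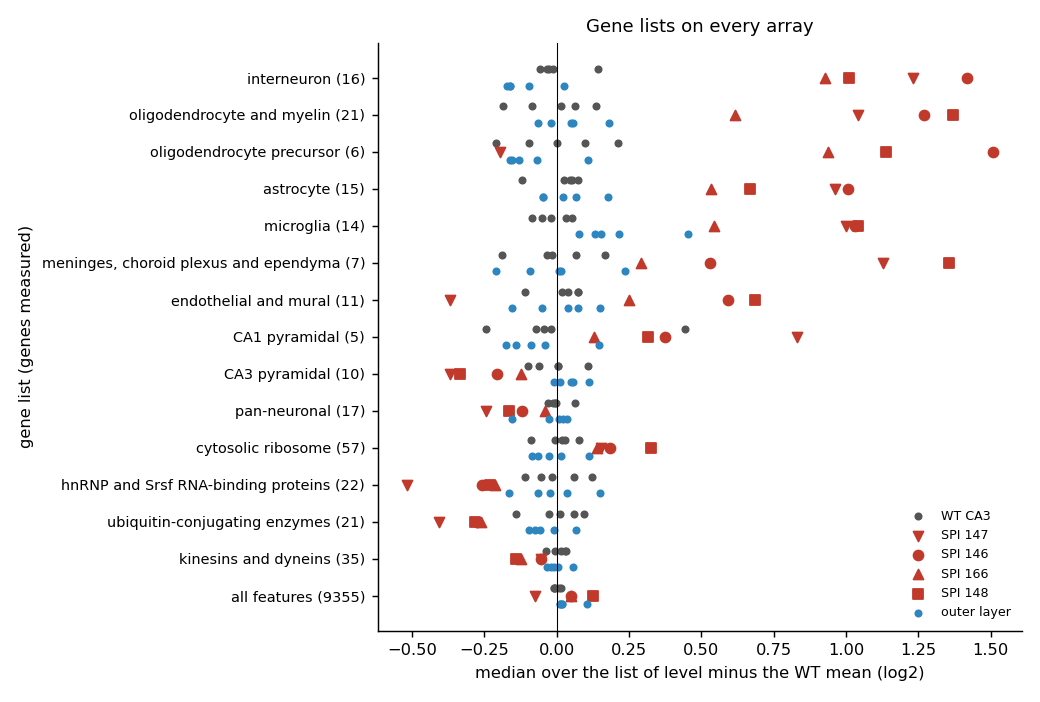
Median over each gene list of the level minus the WT mean (horizontal axis, log2) on every array, with the number of genes measured in brackets, WT in grey, inner arrays in red by mouse and outer arrays in blue. Interneuron, myelin, astrocyte and microglia lists stand above 0.5 on all 4 inner arrays, while the list of hnRNP and Srsf genes stands between -0.52 and -0.21.

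Markers of CA3 pyramidal cells moved in both directions. Of 10 measured, 1 rose, 4 fell and 5 did not pass, with a median of -0.29. Among all features 13.6% rose and 10.9% fell. With the signal covariate 0 of the 10 rose and 1 fell. Nptx1, a secreted pentraxin that gathers AMPA receptors, was at 8.22, 7.32, 8.46, 7.60 and 7.94 in WT and 6.25, 6.77, 6.86 and 5.21 in SPI (-1.62 ± 0.30, limma adjusted p = 0.00207). Spock1, a secreted proteoglycan, was at 9.99, 8.70, 9.76, 8.97 and 9.56 in WT and 9.08, 8.10, 8.21 and 7.68 in SPI (-1.13 ± 0.28, adjusted p = 0.0118). Nptx1 was below WT on all inner arrays, whereas SPI 147 lay inside the WT range for Spock1. Cpne4, a calcium-dependent membrane-binding protein, was at 12.63, 12.26, 12.26, 12.22 and 12.33 in WT and 10.66, 11.82, 11.83 and 11.39 in SPI (-0.91 ± 0.21, adjusted p = 0.00682). Bok, a BCL2 family member, was at 12.17, 12.05, 11.99, 12.42 and 12.12 in WT and 13.47, 12.70, 12.69 and 12.71 in SPI (0.74 ± 0.16). For both the departure was largest on SPI 147, and the further Bok probe went the other way (-1.24). With the mean signal as a covariate the adjusted p was 0.0717 for Nptx1, 0.226 for Cpne4 and 0.204 for Bok, and without SPI 147 and SPI 148 that of Cpne4 was 0.0575. Summed CA3 marker level was 26941 to 34692 in SPI, 34037 to 38645 in WT and 30166 to 40039 in SPE.

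Markers of neighbouring fields were checked for the reach of the dissection, to be read against 13.6% of all features that rose and 10.9% that fell. Of 5 measured CA1 genes 2 rose: Mpped1, a phosphodiesterase-domain protein, by 0.84 ± 0.11 (limma adjusted p = 0.000166), and the transcription factor Pou3f1 by 1.07 ± 0.23, the latter lost with the signal covariate (adjusted p = 0.075). Mpped1 was at 7.05, 7.15, 7.03, 7.05 and 6.98 in WT and 7.88, 8.06, 7.71 and 7.94 in SPI, without overlap. Of 3 measured dentate granule genes 1, the complement-like synaptic protein gene C1ql2, rose (1.47 ± 0.38, adjusted p = 0.0141). It was at 9.36 on SPI 147 and between 7.38 and 7.90 on the other inner arrays, with WT 144 at 7.33, and the call was lost with the covariate (adjusted p = 0.439) and without SPI 147 and SPI 148 (0.119). Of 4 thalamic genes 1, Rgs16, rose (list median 0.61). Their list median was 0.65, 0.61, 0.55 and 0.28 above the WT mean on SPI 147, 146, 166 and 148, and below it on every outer array. Of 6 CA2 and 4 hilar mossy cell genes 0 passed (list medians 0.06 and 0.13). Among 17 pan-neuronal genes 2 rose and 5 fell (median -0.14), and with the signal covariate none of them passed in either direction. Their summed level was 94954 to 102247 in SPI, 103755 to 112566 in WT and 99140 to 109288 in SPE. The part of neighbouring tissue in the rises was not tested.

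The largest falls lay in genes that most cells use, and their values spread widely over the inner arrays. Tspan3, a tetraspanin of the cell membrane, was at 10.21, 10.07, 10.20, 9.77 and 10.03 in WT and 5.80, 8.17, 8.62 and 6.81 in SPI. It was lowest on the dimmest arrays, SPI 147 and SPI 148, below WT on all 4, and fell by 2.67 (SE 0.49, 6.37-fold lower, limma adjusted p = 0.00185). Tceal3, related to transcription elongation factors, was at 8.72, 8.99, 8.81, 8.64 and 8.56 in WT and 4.94, 6.56, 7.44 and 6.22 in SPI (-2.43 ± 0.39, adjusted p = 0.000898). Atp5pb, a subunit of mitochondrial ATP synthase, was at 10.80, 10.95, 10.47, 10.68 and 10.78 in WT and 7.17, 9.03, 9.47 and 7.74 in SPI (-2.35 ± 0.41, adjusted p = 0.00135). In each the order of the inner arrays was the same, SPI 147 lowest and SPI 166 highest. Selenof, a selenoprotein of the endoplasmic reticulum, was at 10.27, 9.96, 9.81, 9.71 and 10.02 in WT and 6.04, 8.30, 8.77 and 7.39 in SPI (-2.30 ± 0.44). The splicing factor Hnrnpa2b1 was at 8.30, 7.06, 7.73, 6.77 and 7.81 in WT and 4.65, 5.71, 6.06 and 4.49 in SPI (-2.28 ± 0.39). Rbm3, a cold-inducible RNA-binding protein, was at 9.34, 9.65, 8.75, 9.00 and 8.99 in WT and 6.26, 7.37, 7.96 and 6.28 in SPI (-2.15 ± 0.35). None of these genes overlapped between the groups. The Hnrnpa2b1 probe was detected on only 2 inner arrays, so the size of its fall rests partly on undetected signal.

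The dim outer array shared these falls. Over the 12 largest falls the median departure from the WT mean was -2.87 on SPI 147 and SPI 148, -1.57 on SPI 146 and SPI 166, -1.84 on SPE 148 and -0.25 on the other outer arrays. Tspan3 on SPE 148 was at 7.91, and the other outer arrays were at 9.72, 9.53, 9.78 and 9.90. Over the 12 largest rises the corresponding medians were 2.06, 1.64, 0.43 and -0.06. With mean signal as a covariate 11 of the 12 rises were still called, all but Erich5, a gene of uncharacterised function (adjusted p = 0.183). Of the 12 falls 7 were called with that covariate, and Arf5, Atp6v1g1, Gm5643, Tsc22d1 and Ube2e3 were not. The Gm5643 probe was detected on only 1 inner array. Without SPI 147 and SPI 148 the falls still had a median of -1.59 and 9 were called. All 12 falls and all 12 rises were called once SPE 148 was also left out. Their medians hardly moved by this (-1.60 for the falls and 1.65 for the rises, which had been 1.65 before). SPE 148 is in neither group, and it enters mainly through the shared estimate of spread. The regained calls are therefore not added support for the differences.

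**Figure D4:**
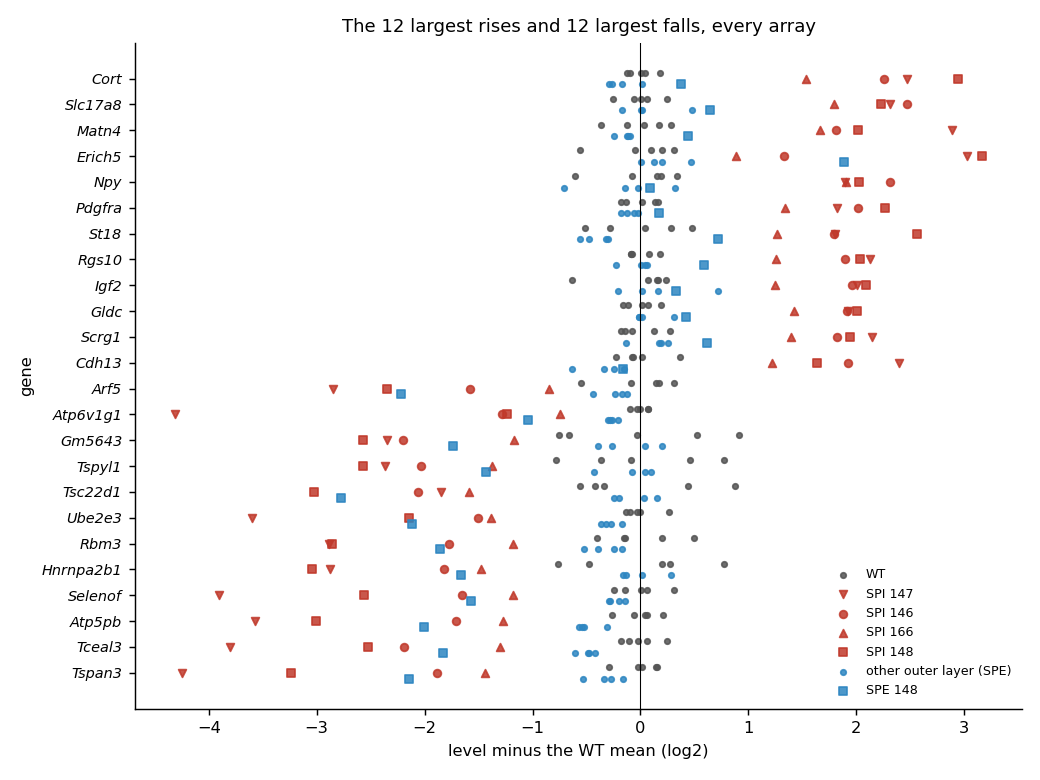
Level minus the WT mean (horizontal axis, log2) on each array for the 12 largest rises and 12 largest falls, with WT in grey, inner arrays in red by mouse, SPE 148 as blue squares and other outer arrays as small blue points. Falls are deepest on SPI 147 and SPI 148 and are shared by SPE 148 (median -1.84), whereas SPE 148 has a median of 0.43 for the rises.

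Over all calls the dim outer array departed from WT in both directions. Features called lower had a median departure of -0.89, -0.60, -0.47 and -0.996 on SPI 147, 146, 166 and 148, and -0.62 on SPE 148, which was the lowest outer array for 83.3% of them. The other outer arrays had medians from -0.11 to -0.06. SPI 147 or SPI 148 was the lowest inner array for 46.8% and 46.9% of these features. Features called higher had medians of 0.73, 0.57, 0.41 and 0.78, and 0.39 on SPE 148, the highest outer array for 73.6%. For these the value on SPE 148 was close to that on SPI 166. The part of low signal in either direction was not tested beyond the fits that follow.

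Calls were recounted under 6 settings that bear on low signal: median scaling, the deposited normalised values, mean signal as a covariate, no background correction, without SPI 147, and without SPI 147 and SPI 148. Over both directions 349 features (3.73%) were called in the reported fit and under all 6. Of the 1273 features called higher, 281 (3% of all features) were called under all 6, and of the 1016 called lower, 68 (0.727%). The covariate kept 298 of the higher and 106 of the lower calls. Mean signal was itself lower on every inner array than in WT, so the covariate also takes up part of the group difference. Without SPI 147 and SPI 148, which leaves 2 inner arrays, 483 and 269 were kept. When SPE 148 was left out too, 795 of the higher and 642 of the lower calls were kept. The median differences of these calls hardly moved, from 0.49 to 0.49 and from -0.53 to -0.54. SPE 148 is in neither group and enters mainly through the shared estimate of spread. Median scaling kept 1165 and 465, and 214 features called lower then had a positive difference.

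**Figure D5:**
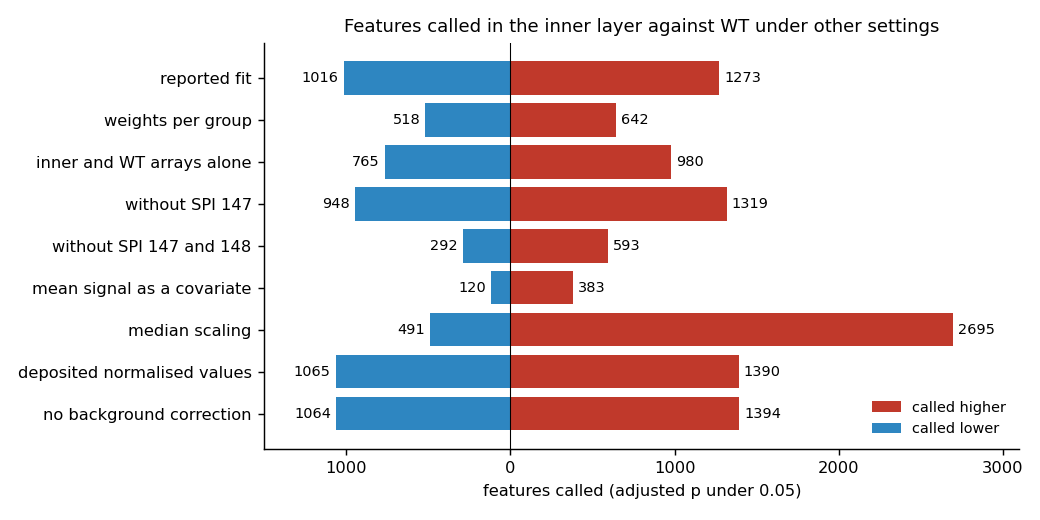
Number of features called higher (red, to the right) and lower (blue, to the left) in the inner layer against WT in the reported fit and under 8 other settings. The counts range from 383 to 2695 higher and from 120 to 1065 lower.

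The falls that held under all 6 settings include enzymes and channels of neurons and mitochondria. Ak5, a brain adenylate kinase that balances adenine nucleotides, was at 10.19, 10.27, 10.18, 9.89 and 10.20 in WT and 8.68, 9.01, 9.06 and 8.13 in SPI. All inner arrays were below all WT arrays, and Ak5 fell by 1.40 (SE 0.21, 2.64-fold lower, limma adjusted p = 0.000473), with the smallest fall under the settings at 1.06. Atp2b1, a plasma membrane calcium pump, was at 9.40, 8.59, 8.95, 8.32 and 9.10 in WT and 7.33, 7.56, 7.52 and 5.59 in SPI (-1.86 ± 0.35, adjusted p = 0.00221). Elmod1, a GTPase-activating protein for ARF family members, was at 9.05, 7.50, 8.44, 7.78 and 8.22 in WT and 6.74, 6.48, 6.59 and 5.63 in SPI (-1.82 ± 0.33). SPI 148 was lowest for all 3. Pdhb, a subunit of pyruvate dehydrogenase, was at 9.22, 8.29, 8.82, 8.36 and 8.98 in WT and 6.34, 7.49, 7.55 and 6.67 in SPI (-1.71 ± 0.29, adjusted p = 0.0012), and its further probe differed by -0.38 without a call. Vdac3, a channel of the outer mitochondrial membrane, was at 10.32, 9.74, 10.08, 9.80 and 10.13 in WT and 8.72, 8.67, 8.87 and 7.76 in SPI (-1.48 ± 0.27). Tbrg1, a growth regulator, fell by 1.54 (SE 0.28). With the signal covariate several of these calls passed only narrowly. The limma adjusted p was then 0.0495 for Atp2b1, 0.0486 for Vdac3 and Tbrg1, 0.0432 for Elmod1, 0.0343 for Pdhb and 0.0151 for Ak5. For the 12 steadiest falls the median on SPE 148 was -1.63, against -0.17 on the other outer arrays.

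Among splicing factors and ubiquitin-conjugating enzymes more genes fell than rose, where 13.6% of all features rose and 10.9% fell, and most of these falls did not pass with the signal covariate. Of 22 hnRNP and Srsf splicing factors 1 rose and 9 fell (median -0.38), including Hnrnph1 (-1.49 ± 0.29), for which 4 of 5 probes were called, although it did not pass with the signal covariate. With the signal covariate 1 of the 22 fell, without SPI 147 and SPI 148 also 1, and with a weight for each group 4. Of 21 ubiquitin-conjugating enzymes 1 rose and 6 fell (median -0.24), among them Ube2e3 (-2.12 ± 0.45), and 0 fell with the covariate. Among 31 proteasome genes 4 rose (12.9%) and 5 fell (16.1%), near the shares of all features. The catalytic subunit Psmb7 was at 10.98, 11.28, 10.87, 10.77 and 11.14 in WT and 9.89, 10.08, 10.21 and 9.81 in SPI (-0.98 ± 0.16, limma adjusted p = 0.000972), although 1 of its 3 probes differed by 0.22. Cytosolic ribosomal proteins gave 17 rises and 4 falls among 57 (median 0.19), and 2 rises and 0 falls with the covariate.

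Cytoskeletal and trafficking genes gave mixed counts, to be read against 13.6% of all features that rose and 10.9% that fell. Of 14 tubulins 1 rose and 4 fell (median -0.24), and of 35 kinesins and dyneins 3 rose and 9 fell (median -0.02). With the covariate 0 of either list fell. Of 45 Rab GTPases 5 rose (11.1%) and 8 fell (17.8%), and of 42 genes of Golgi structure and coats 7 rose and 7 fell (16.7% each, median -0.10), shares near those of all features. Among the 21 measured genes that carry cargo out of the endoplasmic reticulum 5 fell and 0 rose. The smallest p among them was that of Mcfd2, a cofactor of the cargo receptor for coagulation factors. Mcfd2 was at 9.42, 9.59, 9.42, 9.22 and 9.40 in WT and 8.37, 8.78, 8.96 and 8.49 in SPI, without overlap (-0.75 ± 0.13, limma adjusted p = 0.00126). In the respiratory chain 3 of 33 complex I genes rose and 5 fell, and 2 of 38 genes of complexes II to V rose and 5 fell, with Cox7a2l, a supercomplex assembly factor, at -1.41 ± 0.25. Mitochondrial dynamics and import gave 3 rises and 6 falls among 30, the mitochondrial ribosome 4 and 9 among 68, and the V-ATPase proton pump 2 and 3 among 18.

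Counts for ion channels lay near those of all features. Of 67 measured channel genes 12 rose (17.9%, against 13.6% of all features) and 10 fell (14.9%, against 10.9%), with a median of -0.01. Kcnj16, an inward rectifier of glia, was at 5.11, 5.27, 5.09, 5.17 and 5.58 in WT and 6.27, 6.40, 6.01 and 6.38 in SPI (1.00 ± 0.15, limma adjusted p = 0.000482). Kcnq5, a channel of the neuronal M current, was at 6.27, 6.54, 6.52, 5.84 and 6.74 in WT and 4.33, 5.30, 5.33 and 4.34 in SPI (-1.54 ± 0.24, adjusted p = 0.000594). Kcnip2, an auxiliary subunit of Kv4 potassium channels, was at 6.76, 6.89, 7.20, 7.02 and 6.38 in WT and 4.68, 5.63, 5.92 and 4.65 in SPI (-1.61 ± 0.26, adjusted p = 0.000741), and all 3 of its probes were called lower. Groups were apart for all of these, and the Kcnq5 call was lost with median scaling (adjusted p = 0.156). The Kcnq5 and Kcnip2 probes were each detected on only 2 inner arrays, so the sizes of these falls rest partly on undetected signal. Among 10 glutamate receptor genes 1 rose and 2 fell. The AMPA receptor subunit Gria2 was at 12.10, 12.48, 12.20, 11.91 and 12.28 in WT and 11.59, 11.69, 11.70 and 11.38 in SPI (-0.59 ± 0.13, adjusted p = 0.00619). Grm7, a presynaptic metabotropic receptor, fell by 1.29 (SE 0.30), and its probe was detected on only 2 inner arrays. With the covariate the adjusted p was 0.102 for Gria2 and 0.237 for Grm7. Of 5 measured GABA receptor genes 0 rose and 2 fell, and 0 fell with the covariate. Solute carriers gave 32 rises and 18 falls among 183 (17.5% and 9.84%), also near the shares of all features.

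The mean number of detected probes differed by -1294.5 between SPI and WT, but few probes switched completely between the groups. Of 25697 probes, 7444 were detected on all 9 arrays and 11132 on none. Only 3 were detected on every inner array and on no WT array. One reads Bmp4, a bone morphogenetic protein ligand, at 4.67, 4.52, 4.46, 4.38 and 4.59 in WT and 5.83, 5.06, 5.31 and 5.55 in SPI, at least 1.63-fold higher in SPI (limma adjusted p = 0.000438). It was detected on 0 outer arrays. The reverse pattern, detected on every WT array and on no inner array, held for 119 probes. Of these, 52 stood as features, being the brightest of their gene or without a gene name, and 39 were called lower. The rest were not tested in the main fit because a brighter probe stood for their gene. Among them Ccdc115, a V-ATPase assembly factor, was at least 1.75-fold higher in WT (adjusted p = 0.000168), and Bcor, a transcriptional corepressor, at least 1.54-fold (adjusted p = 0.000283). A fold here is a bound, set by the lowest signal among detected probes on each array. Both genes were detected on 4 outer arrays, and with median scaling their adjusted p was 0.449 and 0.901.

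Genes with several probes tested the calls within the same arrays. Of 321 genes called higher with 2 or more probes past the filter, all probes were called the same way for 46 (14.3%) and had the same sign for 160 (49.8%). Of 276 called lower these numbers were 128 (46.4%) and 222 (80.4%). Among the genes named here, all probes were called the same way for Cort, Gad1, Cnp, Mfge8, Kcnip2, Gria2, Tsc22d1 and Ube2e3. A further probe had the opposite sign for Bok, Cldn10, Gm5643 and Psmb7.

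Within the mutants the inner layer was also set against the outer layer, which shares genotype and, for 4 mice, the animal. Of 9355 features 1917 (20.5%) were called, 1014 higher (10.8%) and 903 lower (9.65%) in SPI. Without the animal block 1065 were called, and without SPI 148 the number was 946. Of the glial lists, 13 of 21 myelin, 11 of 15 astrocyte, 9 of 14 microglial and 3 of 6 precursor genes were higher in SPI than in SPE. Of the 22 hnRNP and Srsf genes 7 were lower. For Tspan3 the difference between the layers was -1.98 (limma adjusted p = 0.00416), with SPE 148 inside the range of the inner arrays. Both comparisons use the same inner arrays, so their counts are not independent of each other.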

How the data were processed

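The deposited table without normalisation gave a bead signal (intensity) and a detection p-value per probe and array. Per the submitters' processing notes BeadStudio was used; whether it subtracted background was not stated in the sources read. A second deposited table held normalised intensity values and was used as an alternative. In R 4.3.3 with limma 3.58.1, the deposited intensity values were corrected with neqc (offset 16, with the negative controls' mean and variance estimated from detection p-values), quantile normalised and put on the log2 scale. Probes with detection p under 0.05 on at least 4 of 14 arrays were kept (12140), and the brightest probe stood for each gene. Platform annotation named 23978 probes with 1 symbol and 1719 with none. All 14 arrays entered 1 limma fit with 3 group means and animal as a random block, since titles give the same animal number to both layers (consensus correlation 0.319). P-values were Benjamini-Hochberg adjusted over 9355 features. The fit was run on simulated data with known differences, and a limit to pass was set only where all groups had the same spread. A spread per group was simulated as well, without a limit to pass. The inner arrays spread more than WT, so the limit that was set does not cover this feature of the data. Groups came from the titles, and p-values measure the spread between these arrays. The number of arrays limits precision.

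The text names the 12 largest rises and falls, the 12 of each that held best under the 6 signal settings, the most significant members of each list (at most 3), detection differences, and Dcx, each in part, and says where a gene was chosen otherwise. The comparison, members and lists were chosen with earlier results of these data known, so lists are described by counts and medians. Other scalings, filters, probe rules, weights, the block and each array left out were tried as alternatives.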

Additional observations from a re-analysis of the deposited data

Results flagged for a closer look

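Of 158 groups of arrays checked, 14 held an array far from the others of its group, where chance gives about 1 in 20. SPI 166 was the low inner array for Pvalb (11.99), Gldc (8.72), Igf2 (8.29), Kl (6.77) and Vtn (7.88), all genes that rose. SPI 147 was low for Atp6v1g1 (4.22) and high for Bok (13.47), and SPI 148 was low for Atp2b1 (5.59). Among WT arrays, mouse 206 was low for Igf2 (6.42) and Laptm5 (7.04), mouse 199 was low for Ak5 (9.89) and Itm2a (6.14), mouse 144 was high for Tmem119 (5.42) and mouse 145 was high for Cpne4 (12.63).

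Each of the 12 largest rises and 12 largest falls against WT also differed between the inner and the outer layer in the same limma fit. Of all features 20.5% did. These genes were chosen for their extreme inner values, and both comparisons use the same inner arrays. The choice itself therefore favours a difference between the layers, which is not independent support. The rises in SPI over SPE were 2.35 for Cort, 2.11 for Matn4, 2.10 for Cdh13, 2.08 for Npy, 2.03 for St18, 1.99 for Slc17a8, 1.89 for Pdgfra, 1.73 for Rgs10, 1.66 for Gldc, 1.61 for Igf2, 1.58 for Scrg1 and 1.54 for Erich5. The differences of the falls were -1.98 for Tspan3, -1.95 for Hnrnpa2b1, -1.80 for Selenof, -1.73 for Tspyl1, -1.66 for Tceal3, -1.63 for Gm5643, -1.56 for Atp5pb, -1.51 for Rbm3, -1.49 for Tsc22d1, -1.47 for Ube2e3, -1.47 for Atp6v1g1 and -1.24 for Arf5.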

How the results depend on the processing

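The split between higher and lower calls moved most with the scaling, and the count of calls with the signal covariate. Median scaling over probes detected on all arrays moved the median of all features from 0.03 to 0.34 and gave 2695 higher and 491 lower calls, and Dcx then differed by 0.38. Median scaling over all probes, chosen after seeing the data, moved that median to -0.85 and gave 4019 calls, 16 higher and 4003 lower. Under it Kl (-0.057), Vtn (-0.26), Mpped1 (-0.34), Rgs16 (-0.17) and Bok (-0.23) turned sign and so lost their calls as rises. Besides these, 33 of the 77 genes in the text kept their sign but were no longer called. Among them were Sst, Pvalb, Gad1 and Slc32a1 (0.05, 0.0045, 0.047 and 0.041). The covariate gave 503 calls (383 higher, 120 lower), leaving out SPI 147 and SPI 148 gave 885 (593 and 292), and weights per group, chosen after seeing the data, gave 1160 (642 and 518). Every probe as a feature gave 1770 lower calls. Averaging the probes of each gene, Bok differed by -0.25. Without the animal block SPI vs WT had 2301 calls and SPI vs SPE 1065 in place of 1917. Leaving out 1 array gave 1613 to 2615 calls (896 to 1465 higher, 717 to 1182 lower) and 946 (without SPI 148) to 2217 for SPI vs SPE. The difference in mean raw signal then ran from -229 to -148. That in detected probes ran from -1655 to -658, with p above 0.05 in 8 of 9 cases. Of the same genes the covariate ended 16 calls, leaving out SPI 147 and SPI 148 ended 9 and median scaling 7. Dim probes on the inner arrays limit what could be detected there.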
